A study of Mus musculus with 10 samples.

Results

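The transcripts described here encode 10 cytokine receptor chains of regulatory T (T_reg) cells: Il7r, Il6ra, Il6st, Il10ra, Il10rb, Il18r1, Il21r, Il27ra, Ifngr1 and Ifngr2. They were chosen by name, as receptors for cytokines other than IL-2, and are 10 of the 55809 gene rows counted. All 10 passed the filter of a mean count of at least 10 that left 16363 genes for testing. RNA came from splenic and lymph node T_reg cells of mice whose Foxp3 locus makes an AID-Foxp3 fusion protein, where AID is a degron that auxin switches on, with a ZsGreen reporter and Cre recombinase made from the same transcript. The ROSA26 locus of R26-TIR1(F74G) mice also carries TIR1(F74G), a mutated plant E3 ligase, with an mCherry reporter behind a STOP cassette that the Cre of the Foxp3 allele removes, so TIR1(F74G) is made in Foxp3-expressing cells. R26-WT mice carry the AID-Foxp3 allele without TIR1(F74G). Both groups received 5-ph-IAA for 14 days, and the labels give no age. 5-ph-IAA is the auxin analog that lets TIR1(F74G) mark the fusion protein for degradation. The genotype labels do not say whether the mice were Foxp3-AID/y or Foxp3-AID/WT. The paper describes differential expression after 14 days for Foxp3-AID/y mice, and mentions mildly increased inflammation in such males after degradation. Where these were used, Foxp3 loss within the cells and that inflammation cannot be told apart. There were 4 R26-WT libraries (replicates 1 to 4) and 6 R26-TIR1(F74G) libraries (replicates 5 to 10). The study's methods describe sorting by ZsGreen, and by mCherry as well where TIR1 is present, without stating it for these libraries. Where it was used, the gate and the genotype cannot be told apart.

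Most of these receptors have no enzyme activity of their own and signal through bound JAK kinases, which phosphorylate STAT transcription factors. IL-7 signals mainly through STAT5, and IL-6, IL-10 and IL-21 mainly through STAT3, whereas the IL-18 receptor belongs to the IL-1 receptor family and signals through the adaptor MyD88. A receptor is built from a chain that binds the cytokine and a partner that several cytokines may share. T_reg cells are known for low surface IL-7 receptor, and IL-6, IL-21 and IL-27 are among the cytokines known to influence their differentiation and function.

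No receptor transcript passed the test between the groups. DESeq2 called 0 of the 10 at a Benjamini-Hochberg adjusted p under 0.05, where 1.74% of all 16363 genes were called (1.4% higher and 0.336% lower in R26-TIR1(F74G)). At an unadjusted p under 0.05, 1 of the 10 (Il10rb) was counted, against 6.86% of all genes. The edgeR quasi-likelihood test and limma voom also called 0, with 1 and 2 receptor genes at an unadjusted p under 0.05. The fitted differences were positive for 5 genes and negative for 5. Their median log2 fold change was -0.0023, against 0.00063 over all tested genes. In 0 of the 10 genes were the normalized counts (counts divided by the DESeq2 size factor of the library) of the groups free of overlap, which was the case for 2.37% of all tested genes. In bulk RNA, fewer cells of a type and less RNA per cell cannot be told apart.

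**Figure D1:**
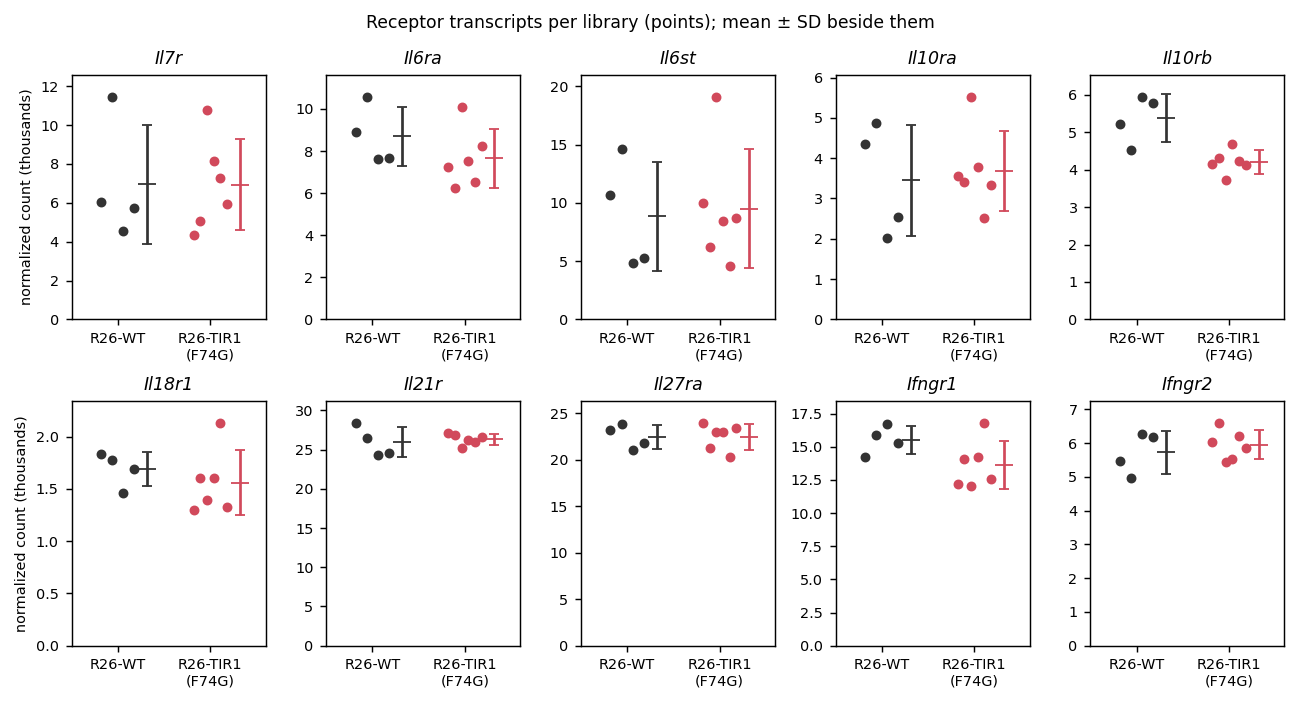
Normalized counts (vertical axes in units of 1000, from 0) of each receptor transcript in the 4 R26-WT libraries (black) and the 6 R26-TIR1(F74G) libraries (red), with the mean ± SD of each group beside the points. For Il10rb only R26-TIR1(F74G) replicate 8 (4687) lies above the lowest R26-WT library (4525). For Ifngr1 only R26-TIR1(F74G) replicate 9 (16785) lies above the lowest R26-WT library (14231). Il7r, Il6st and Il10ra spread widely in both groups.

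The libraries held from 24158699 to 54795718 counted read pairs, and the lowest raw count of any receptor gene in any library was 909 (Il18r1, R26-TIR1(F74G) replicate 8). Foxp3 RNA, which the degron does not act on and which therefore does not check the loss of the protein, ran from 6816 to 11779 normalized counts in R26-WT and from 6778 to 16059 in R26-TIR1(F74G). Of 10 genes of T cell and T_reg identity, 0 were called by DESeq2 or edgeR and 0 had an unadjusted p under 0.05. Of genes that define other cells, Ms4a1, Csf1r, Cd14 and Ncr1 had at most 9 raw counts in any library. The summed B cell list (8 genes) lay from 836 to 1377 normalized counts in R26-WT and from 706 to 1184 in R26-TIR1(F74G), nearly all of it from Cd79a and Cd79b. The summed myeloid list (10 genes) was at most 44.4 and the erythroid and platelet list (7 genes) at most 23.6. The summed CD8 and NK list (9 genes) lay from 2586 to 3317 and from 2229 to 3219. Across the 500 most variable genes, principal component 1 (60.5% of the variance) did not follow the groups, with R26-TIR1(F74G) replicate 7 at one end and R26-WT replicates 3 and 4 at the other. On principal component 2 (20.3%) the groups did not overlap, with R26-WT from 4.28 to 9.49 and R26-TIR1(F74G) from -14.9 to 2.45.

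To compare receptors with each other, normalized counts were divided by exon length in kilobases, and the levels in this paragraph are on that scale. Il21r, the receptor chain that binds IL-21, was the highest at 7879 ± 368 per kb (SD, n = 10 libraries of both groups), above 98.5% of tested genes. Il27ra, the IL-27-binding chain that pairs with gp130, followed at 6433 ± 368, and its range lay wholly below that of Il21r. Ifngr1, the ligand-binding chain for interferon gamma, stood at 5056 ± 621, below Il27ra in 9 of 10 libraries but with overlapping ranges. A gap followed, and Ifngr1 exceeded the next gene, its partner Ifngr2 (1556 ± 132), in 10 of 10 libraries without overlap. From Ifngr2 downwards the neighbours overlapped: Il7r had 1488 ± 535, Il10rb 1226 ± 196, Il10ra 1026 ± 314, Il6ra 934 ± 164, Il6st 832 ± 421 and Il18r1 335 ± 53.8. Il7r exceeded Il10rb in 5 of 10 libraries and Il10ra exceeded Il6ra in 6 of 10, so these neighbours did not differ beyond their spread. Il18r1, the chain that binds IL-18, was lower than Il6st in 9 of 10 libraries.

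**Figure D2:**
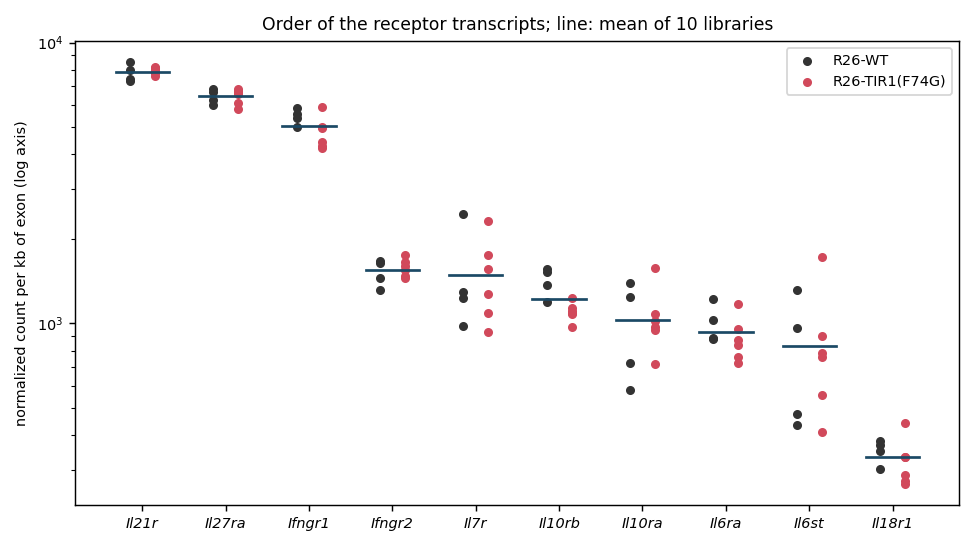
Normalized counts per kb of exon (log axis) of the 10 receptor transcripts, ordered by their mean over the 10 libraries (blue line), with R26-WT in black and R26-TIR1(F74G) in red. Il21r, Il27ra and Ifngr1 form an upper set with means from 5056 to 7879, and the other 7 lie between 335 and 1556.

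The IL-10 receptor is formed by Il10ra, which binds IL-10, and Il10rb, a chain that the receptors for IL-22 and the type III interferons also use. Il10rb (chromosome 16, 91203052 to 91222722, plus strand, GRCm39) was the receptor gene nearest to a call. Its normalized counts were 5218, 4525, 5946 and 5787 in R26-WT replicates 1 to 4 and 4146, 4314, 3711, 4687, 4222 and 4124 in R26-TIR1(F74G) replicates 5 to 10. The R26-TIR1(F74G) values lay below all R26-WT values in 5 of 6 libraries, and the exception, replicate 8, was the library of lowest depth. Means were 5369 ± 644 (SD, n = 4) and 4201 ± 316 (SD, n = 6). The log2 fold change was -0.35 (SE 0.11, 95% Wald interval -0.58 to -0.13), and the adjusted p was 0.0801 in DESeq2 and 0.245 in edgeR. The value crossed the threshold in 3 of 16 alternatives: without R26-WT replicate 2 (-0.43, DESeq2 adjusted p 0.00515), with a trend on gene length removed (-0.37, adjusted p 0.0409) and with 1 surrogate variable in the model (-0.31, adjusted p 7.25e-05). Exons of Gm21970, on the same strand, overlap 14.9% of the exon bases of Il10rb, and read pairs in them were not counted for either gene.

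Il10ra (chromosome 9, 45165135 to 45180447, minus strand) gave no such separation. R26-WT replicates 1 to 4 had 4354, 4882, 2022 and 2538 normalized counts, and R26-TIR1(F74G) libraries ran from 2515 over a median of 3482 to 5523 in replicate 7. Replicates 3 and 4 of R26-WT were low and replicates 1 and 2 high, so the spread inside that group was larger than the distance between the groups. The log2 fold change was 0.09 (SE 0.27, interval -0.43 to 0.62), which leaves room for a level from 0.744 to 1.53 times that of R26-WT. The log2 ratio of Il10ra over Il10rb in the same library, which needs no scaling, was -0.72 ± 0.78 in R26-WT and -0.23 ± 0.43 in R26-TIR1(F74G) (mean ± SD, n = 4 and 6). This difference of 0.50 gave p = 0.238 (exact permutation test, two-sided, adjusted p 0.357 over the 3 chain ratios), where the smallest p that 210 groupings allow is 0.00476.

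For IL-6, Il6ra encodes the binding chain and Il6st encodes gp130, the signal-transducing chain that the IL-27, IL-11, LIF and oncostatin M receptors share. Il6ra (chromosome 3, 89771366 to 89820503, minus strand) had 8908, 10577, 7610 and 7681 normalized counts in R26-WT. In R26-TIR1(F74G) it ran from 6232 over a median of 7397 to 10107, with 4 of 6 libraries below all R26-WT libraries and replicate 7 as the high one. The log2 fold change of -0.18 (SE 0.16, interval -0.50 to 0.14) did not pass (DESeq2 adjusted p 0.99996). With 1 surrogate variable it was -0.27 with an adjusted p of 0.000878, and with the length trend removed -0.24 with an adjusted p of 0.0566. A predicted gene on the other strand, Gm42809, overlaps 2.8% of its exon bases.

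Il6st (chromosome 13, 112600604 to 112646620, plus strand) was the most variable of the 10 transcripts. Its counts in R26-WT were 10703, 14630, 4842 and 5283, and R26-TIR1(F74G) ran from 4543 over a median of 8557 to 19094. R26-TIR1(F74G) replicate 7 stood far above the others, the next of which had 9986. The coefficient of variation over all 10 libraries was 50.5%, higher than in 98.6% of the 7160 tested genes with a mean of at least 1000, whose median was 14.8%. Accordingly the log2 fold change of 0.10 had a wide interval (SE 0.38, -0.64 to 0.84), and it was -0.23 without R26-TIR1(F74G) replicate 7. The log2 ratio of Il6ra over Il6st was 0.11 ± 0.56 in R26-WT and -0.18 ± 0.48 in R26-TIR1(F74G), a difference of -0.29 (exact permutation test, two-sided p 0.400, adjusted p 0.400).

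Il27ra (chromosome 8, 84756923 to 84769218, minus strand) and Il21r (chromosome 7, 125202601 to 125232742, plus strand) were the steadiest of the 10 transcripts. For Il21r the R26-WT libraries had 28385, 26542, 24351 and 24593 normalized counts and the R26-TIR1(F74G) libraries from 25224 over a median of 26360 to 27184. Every R26-TIR1(F74G) library fell inside the R26-WT range. The coefficient of variation over 10 libraries was 4.67% for Il21r and 5.72% for Il27ra, at percentiles 1.56 and 4.65 of the genes with a mean of at least 1000. The log2 fold change of Il21r was 0.02 (SE 0.077, interval -0.13 to 0.17), so its level in R26-TIR1(F74G) was bounded between 0.913 and 1.13 times that in R26-WT. Il27ra had 23238, 23879, 21028 and 21783 in R26-WT and from 20287 over 22986 to 23950 in R26-TIR1(F74G). These ranges nearly coincided, and the log2 fold change of 0.0002 (SE 0.086) had an interval from -0.17 to 0.17, or 0.889 to 1.12 times the R26-WT level.

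The interferon gamma receptor joins Ifngr1 to the signalling chain Ifngr2. Ifngr1 (chromosome 10, 19467697 to 19485977, plus strand) had 14231, 15902, 16690 and 15289 normalized counts in R26-WT, against 12204, 14076, 12016, 14201, 16785 and 12549 in R26-TIR1(F74G) replicates 5 to 10. In 5 of the 6 R26-TIR1(F74G) libraries Ifngr1 was below every R26-WT library, while replicate 9 was above them all. The log2 fold change was -0.19 (SE 0.12, interval -0.43 to 0.05), with an unadjusted p of 0.125 in the DESeq2 fit and an adjusted p of 0.99996. Ifngr2 (chromosome 16, 91343960 to 91362511, plus strand), which lies near Il10rb on the same chromosome, had 5469, 4961, 6281 and 6195 in R26-WT and from 5455 over 5948 to 6594 in R26-TIR1(F74G). The groups overlapped broadly for Ifngr2, with a log2 fold change of 0.05 (SE 0.11, interval -0.15 to 0.26).

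The log2 ratio of Ifngr1 over Ifngr2 was 1.38, 1.68, 1.41 and 1.30 in R26-WT and 1.01, 1.09, 1.14, 1.36, 1.43 and 1.10 in R26-TIR1(F74G). Of the R26-TIR1(F74G) libraries, 4 lay below all R26-WT ratios and replicates 8 and 9 within them. Means were 1.44 ± 0.16 (SD, n = 4) and 1.19 ± 0.17 (SD, n = 6). The difference of -0.25 gave p = 0.0571 (exact permutation test, two-sided, 12 of 210 groupings as large), and 0.171 after adjustment over the 3 ratios.

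Il7r (chromosome 15, 9505874 to 9530262, minus strand), which encodes the IL-7 receptor alpha chain that TSLP also uses, had 6048, 11457, 4556 and 5754 normalized counts in R26-WT. R26-TIR1(F74G) libraries ran from 4350 over a median of 6605 to 10795. Each group had a high library (R26-WT replicate 2 and R26-TIR1(F74G) replicate 7), and the means of 6954 ± 3071 (SD, n = 4) and 6931 ± 2354 (SD, n = 6) nearly coincided. With a log2 fold change of -0.0047 (SE 0.29), the interval reached from -0.57 to 0.56, which spans levels from 0.673 to 1.48 times that of R26-WT. Without R26-WT replicate 2 the value was 0.35, also not called (adjusted p 0.648).

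Il18r1 (chromosome 1, 40504712 to 40540014, plus strand) had 1831, 1780, 1460 and 1695 normalized counts in R26-WT and from 1295 over a median of 1500 to 2131 in R26-TIR1(F74G). Its lowest and highest libraries were both in R26-TIR1(F74G), replicates 5 and 9. The log2 fold change was -0.12 (SE 0.16, interval -0.43 to 0.20). Il18rap, the accessory chain that IL-18 signalling needs, had only 21 to 127 raw counts per library.

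**Figure D3:**
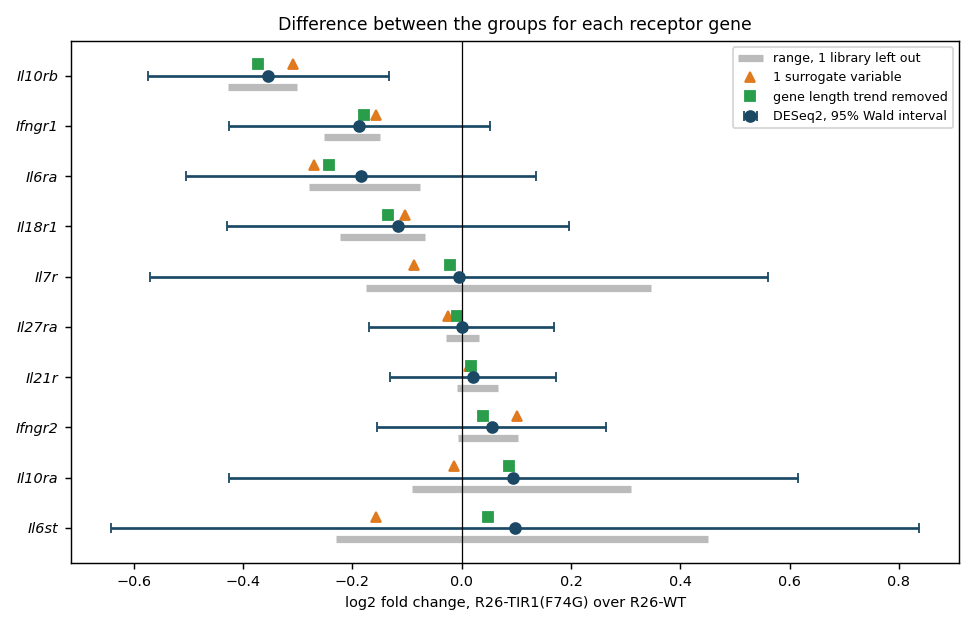
Log2 fold change of R26-TIR1(F74G) over R26-WT for each receptor gene (horizontal axis), with the DESeq2 estimate and its 95% Wald interval in blue, the range over 10 fits that each left out a library in grey, and the estimates with 1 surrogate variable (triangles) or with the gene length trend removed (squares). The Il10rb interval (-0.58 to -0.13) is the only one of the 10 that does not include 0, and those of Il6st, Il7r and Il10ra are the widest.

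Several receptor transcripts varied from library to library with a property of the whole library. In each library the slope of log2 normalized counts (as deviations from each gene's mean) on log2 exon length was computed over the 16363 tested genes, these 10 included. Il6st has the most exon bases of the 10 (11099), so for it some rise with the slope is built into the measure. The slope ran from -0.10 in R26-WT replicate 3 to 0.12 in R26-TIR1(F74G) replicate 7 and did not separate the groups. The same 2 libraries stood at the ends of principal component 1 (16.8 and -24.6). How many of all tested genes follow the slope as closely was not examined, so the relations below are not shown to be particular to the receptors. Over 10 libraries Il6st followed this slope with Pearson r = 0.98 (permutation p 1e-05, the smallest that the resamples can give, adjusted p 0.00023 over 23 relations) and Spearman rho = 0.95 (permutation p 1e-04, adjusted p 0.00115). Il10ra followed it with r = 0.96 (permutation p 2e-05, adjusted p 0.00023) and rho = 0.96 (permutation p 5e-05, adjusted p 0.00115). Both held without the 2 libraries farthest from the median slope (r = 0.97 and 0.93) and within the 6 R26-TIR1(F74G) libraries (0.99 and 0.93). Ifngr2 ran the other way, with r = -0.82 (permutation p 0.00393, adjusted p 0.0261), rho = -0.87 (permutation p 0.00204, adjusted p 0.0156), -0.86 without those 2 libraries and -0.82 within R26-TIR1(F74G). Il6ra (r = 0.75) and Il27ra (r = 0.79) passed by Pearson's r (adjusted permutation p 0.0475 and 0.0369) but not by Spearman's rho (0.59 and 0.72, adjusted permutation p 0.234 and 0.123). For Il7r (r = 0.68, rho = 0.59) and Il10rb (r = -0.61, rho = -0.50) neither measure passed after adjustment (adjusted permutation p from 0.0940 to 0.303).

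**Figure D4:**
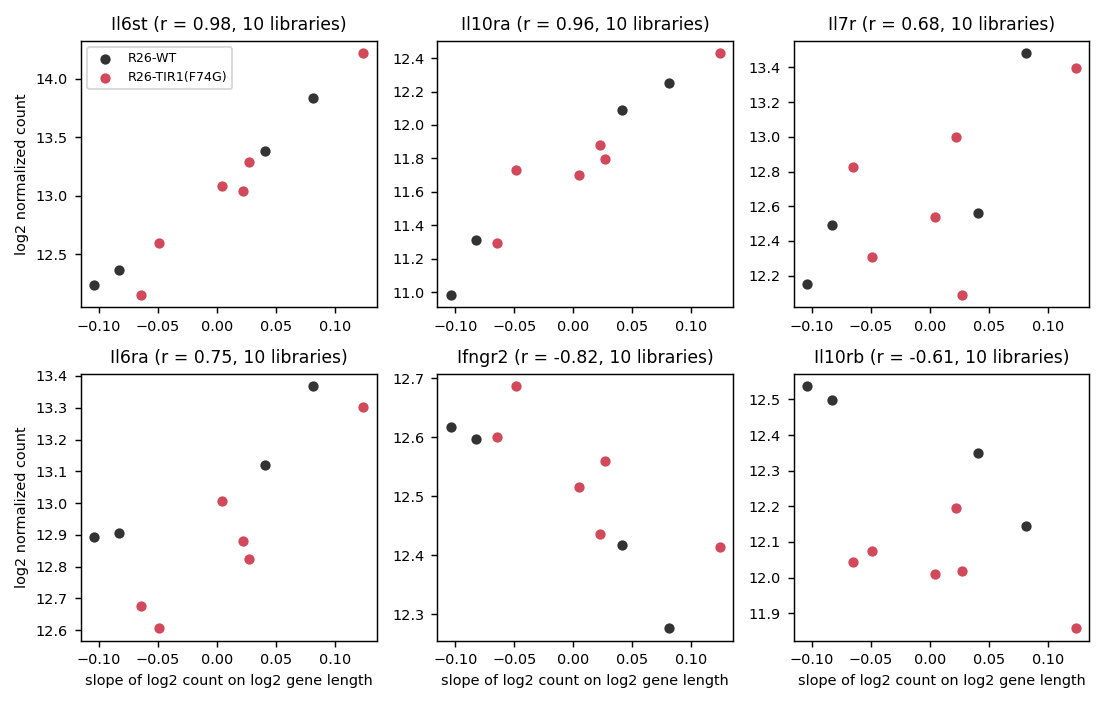
Log2 normalized count (vertical axes) against the slope of log2 count on log2 gene length of the same library (horizontal axes) for 6 receptor transcripts, with R26-WT in black and R26-TIR1(F74G) in red. Il6st and Il10ra rise with the slope in both groups, Ifngr2 falls, and for Il10rb most R26-TIR1(F74G) libraries lie below the R26-WT libraries of like slope.

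Of the chain pairs, Il6ra and Il6st varied together over the 10 libraries (r = 0.82, permutation p 0.00454, adjusted p 0.0261, rho = 0.71, permutation p 0.0267, adjusted p 0.123). Without the 2 libraries farthest from the median of Il6ra, R26-WT replicate 2 and R26-TIR1(F74G) replicate 7, r was 0.56, so the relation rested in part on those libraries. Within the 6 R26-TIR1(F74G) libraries, replicate 7 among them, r was 0.91. Il10ra and Il10rb had r = -0.58 and rho = -0.36 (permutation p 0.0777 and 0.314, adjusted p 0.149 and 0.425), and Ifngr1 and Ifngr2 r = 0.13 and rho = 0.27 (permutation p 0.716 and 0.450, adjusted p 0.716 and 0.574). No receptor transcript passed by either measure against the mean of 8 resting T cell genes (lowest adjusted permutation p 0.0805, for Il10ra with r = 0.72).

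Among 10647 other named genes with a mean of at least 50 normalized counts, those most like Il7r over the 10 libraries were Phf20l1 (r = 0.96), Apobec3, a cytidine deaminase gene (r = 0.96), and Narf (r = 0.93), none of them called (DESeq2 adjusted p 0.99996 each). The genes most like Il10rb were Arl5c (r = 0.97), Rbm48 (r = 0.97) and Chil5 (r = 0.96). The closest of 10647 genes over only 10 libraries can reach a high r by chance. Being picked for following Il10rb, these genes are also likely to share its difference between the groups. Of these Arl5c, an ADP-ribosylation factor-like gene, fell from a mean of 5338 to 3598 normalized counts (log2 fold change -0.57 with SE 0.15 and a DESeq2 adjusted p of 0.0130, but not called without R26-WT replicates 3 or 4 or R26-TIR1(F74G) replicate 10), while Chil5 (-0.65, SE 0.21, adjusted p 0.0784) and Rbm48 (-0.22, SE 0.10, adjusted p 0.588) did not pass.

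The genes around the receptors were examined in lists chosen by function. Of 23 partner and decoy receptor chains 15 were tested and DESeq2 called 0 of them, with 2 at an unadjusted p under 0.05 (median log2 fold change 0.19, against 0.00063 over all tested genes). Nearest to a call was Il1r2, a decoy receptor with only 38 to 511 raw counts per library. It had 68.0 ± 27.4 normalized counts in R26-WT and 195 ± 177 in R26-TIR1(F74G). Its log2 fold change was 1.52 with SE 0.48 (adjusted p 0.0697 in DESeq2 and 0.450 in edgeR). Per kb of exon the highest was Il2rg, the common gamma chain that the IL-7 and IL-21 receptors need, with 39040 ± 6057 normalized counts in R26-WT and 34655 ± 4714 in R26-TIR1(F74G) (log2 fold change -0.17, SE 0.15). Il4ra, the IL-4 receptor alpha chain, had 17933 ± 5183 and 28571 ± 7947 (0.67, SE 0.24, DESeq2 adjusted p 0.158), and Il17ra 14144 ± 5305 and 16831 ± 3552 (0.25, SE 0.24). Of 14 ligand genes 7 were tested and 0 called, with 2 at an unadjusted p under 0.05 (median 0.06). The other 7, among them Il6, Il7, Il18 and Il27, had at most 24 raw counts in any library. The ligands highest per kb were Osm, Clcf1 and Lif, whose products signal through gp130 receptors. Osm had 3284 ± 354 and 3024 ± 242 normalized counts, Clcf1 3425 ± 206 and 3106 ± 216, and Lif 433 ± 142 and 670 ± 275 (log2 fold change 0.63 with SE 0.31 and a DESeq2 adjusted p of 0.645).

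Downstream of the receptors, DESeq2 called 0 of 11 JAK and STAT genes, with 0 at an unadjusted p under 0.05 (median log2 fold change 0.07), with Jak1 at 0.03 (SE 0.26), Stat6 at 0.01 (SE 0.24) and Stat5b at 0.0006 (SE 0.18). It likewise called 0 of 10 brakes on signalling, with 1 at an unadjusted p under 0.05 (median 0.01), among them Ptpn6 (0.03, SE 0.11), Socs1 (0.0009, SE 0.19) and Socs3 (0.28, SE 0.14, DESeq2 adjusted p 0.725). The edgeR test also called 0 genes in each of these 4 lists.

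DESeq2 calls fell in the other 3 signalling lists. Of 7 genes of the MyD88 pathway, which the IL-18 receptor shares with Toll-like receptors, Irak2 and Tirap fell and the other 5 were not called (list median 0.06). Irak2, a kinase of the MyD88 complex, had from 2530 to 2908 normalized counts in R26-WT and from 1556 to 2175 in R26-TIR1(F74G), ranges that do not meet (log2 fold change -0.45 with SE 0.13, adjusted p 0.0244 in DESeq2 and 0.141 in edgeR). Tirap, a bridging adaptor of Toll-like receptors that is not known as part of IL-18 signalling, had from 107 to 144 and from 55.8 to 103 (-0.68 with SE 0.20, adjusted p 0.0376 in DESeq2 and 0.238 in edgeR). When each of the 10 libraries was left out in turn, Irak2 was called in 4 of the fits and Tirap in 3, both lower in all 10. Irak2 was not called without any R26-WT library or without R26-TIR1(F74G) replicates 6 or 8, and Tirap without R26-WT replicates 1, 3 or 4 or R26-TIR1(F74G) replicates 5, 7, 9 or 10.

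Of 10 early STAT3 targets, Junb and Pim1 fell and the others, Il6st among them, were not called (list median 0.05). Junb, an AP-1 subunit, had from 40255 to 68015 normalized counts in R26-WT and from 28835 to 38778 in R26-TIR1(F74G), a log2 fold change of -0.70 with SE 0.17 (adjusted p 0.00279 in DESeq2 and 0.0673 in edgeR). Pim1, a survival kinase that is also on the IL-7 list, had from 3537 to 4847 and from 2327 to 3378 (-0.57 with SE 0.15, adjusted p 0.0161 in DESeq2 and 0.126 in edgeR). Both genes respond to many stimuli besides these cytokines. Of the 7 IL-7 survival targets, Pim1 fell and Bcl2, which encodes an anti-apoptotic protein, rose from 40881 ± 5854 (SD, n = 4) to 52904 ± 2341 (SD, n = 6) normalized counts (0.37 with SE 0.11, adjusted p 0.0431 in DESeq2 and 0.192 in edgeR). Mcl1 (-0.03, SE 0.11) and Bcl2l1 (-0.02, SE 0.15), related anti-apoptotic genes, were not called. None of these calls passed in edgeR. With 1 library left out, Junb was called in 9 of 10 fits (not without R26-WT replicate 1) and Pim1 in 6 (not without R26-WT replicates 1, 3 or 4 or R26-TIR1(F74G) replicate 10), while Bcl2 was called in 1 alone, without R26-WT replicate 2. Their signs did not change in these fits.

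Beside these differences, 12 of 14 proliferation genes rose in DESeq2 (list median 1.5), among them Mki67 (log2 fold change 1.70 with SE 0.40, adjusted p 0.00253 in DESeq2 and 0.176 in edgeR) and Top2a (1.61 with SE 0.35, adjusted p 0.000942 in DESeq2 and 0.128 in edgeR). Of the 14 genes, edgeR called 5. With each library left out in turn, Mki67 and Top2a were called in 10 of 10 fits, and the other called genes in from 2 to 10. The summed list lay from 6238 to 8331 normalized counts in R26-WT and from 10932 to 17242 in R26-TIR1(F74G), without overlap. Its part in the receptor values was not tested.

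**Figure D5:**
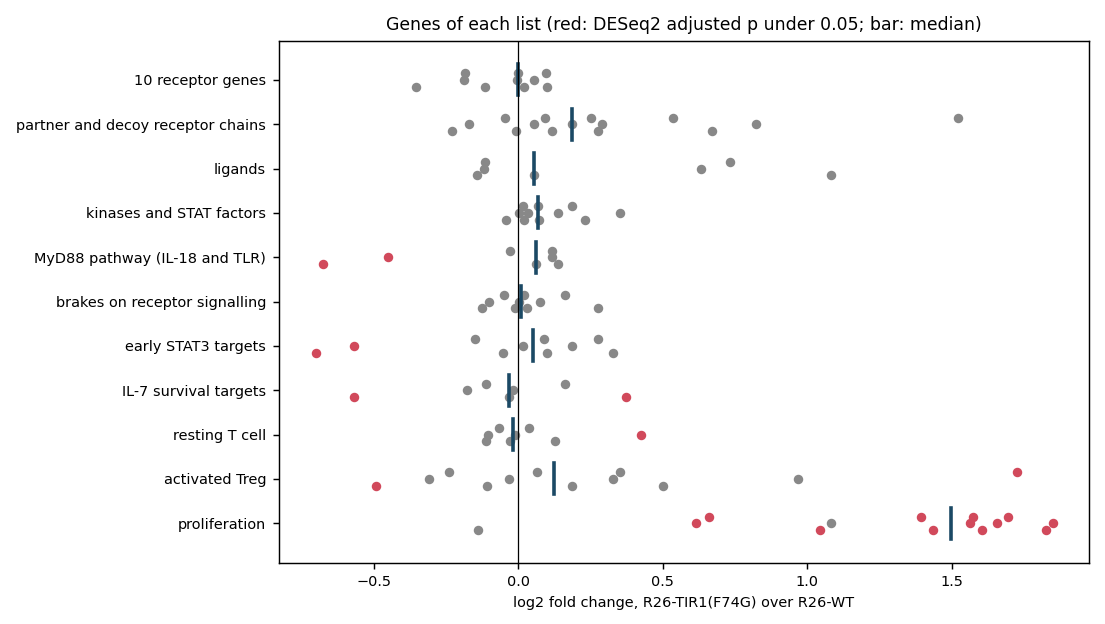
Log2 fold change of R26-TIR1(F74G) over R26-WT (horizontal axis) of each tested gene in the receptor set and in 10 lists, in red where the DESeq2 adjusted p was under 0.05, with the list median as a blue bar. The 10 receptor genes lie between -0.35 and 0.10 with none in red, while 12 of 14 proliferation genes are red and to the right of 0.

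Promoter sequences were looked at for STAT and forkhead motifs, since the receptors signal through STAT factors and Foxp3 is a forkhead protein. The RefSeq promoter table (build GRCm38.p6) matched 7 of the 10 genes by symbol, with 9 windows of the 250 bases before a start site. Il10ra, Il10rb and Il27ra were not in it. TTCNNNGAA, a palindromic STAT motif and so the same on both strands, was held by 2 of the 7 genes (Il7r and Il18r1) and by 8.13% of all 27025 genes of the table. TGTTTAC, a forkhead motif searched on both strands, was held by 1 of the 7 (Il21r) and by 3.54% of all genes. The motifs do not overlap each other in these windows. The windows of Il7r and Il21r are printed because they hold a motif and belong to a transcript with a wide spread and to the steadiest transcript. The Il7r window lies at chr15:9529877-9530126 (minus strand) and the Il21r window at chr7:125603179-125603428 (plus strand), both 5′ to 3′ with the motif in capitals.
Il7r: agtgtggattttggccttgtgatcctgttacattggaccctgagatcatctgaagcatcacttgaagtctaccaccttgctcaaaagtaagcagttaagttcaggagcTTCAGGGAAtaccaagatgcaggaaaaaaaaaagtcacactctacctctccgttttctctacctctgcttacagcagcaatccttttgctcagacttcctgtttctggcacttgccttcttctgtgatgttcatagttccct
Il21r: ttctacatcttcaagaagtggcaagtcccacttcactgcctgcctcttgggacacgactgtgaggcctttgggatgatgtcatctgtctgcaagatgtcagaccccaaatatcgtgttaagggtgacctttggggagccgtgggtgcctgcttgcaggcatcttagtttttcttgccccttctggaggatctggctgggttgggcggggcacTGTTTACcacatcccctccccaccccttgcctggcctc
The Il7r match begins 142 bases before the start site and the Il21r match 38 bases before it. Il18r1 holds 2 STAT motif matches, 219 and 152 bases before the third of its 3 start sites. A match is a string of letters in a window and was not tested as a binding site.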

How the data were processed

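The 4 R26-WT and 6 R26-TIR1(F74G) RNA-seq libraries of T_reg cells were compared after 14 days of 5-ph-IAA. The authors deposited raw counts of read pairs for each gene name, with no normalization. The file headers name featureCounts 2.1.1 and the GENCODE M30 annotation (GRCm39), with primary alignments of mapping quality 30 or more, both mates mapped and no chimeric pairs. No strand option is given, so genes that overlap on opposite strands cannot be told apart, and read pairs over several genes were left out. The study's methods name STAR, and the submitters' processing notes Bowtie2. For libraries of female Foxp3-AID/WT mice the study's methods describe cDNA amplified from little RNA and name no molecular identifiers. They do not state the protocol for the present libraries. Where that protocol was used, PCR copies are not independent molecules and counting error understates the technical error.

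Genes whose mean count reached 10 were tested in R 4.3.3 with DESeq2 1.42.0, as in the study's methods (genotype as the only term, two-sided Wald test, Benjamini-Hochberg adjusted p under 0.05 over 16363 genes), after the tests were tried on simulated data. Alternatives used edgeR 4.0.16, limma 3.58.1 voom with quality weights, TMM factors, no filter on low counts, 1 surrogate variable (sva 3.50.0), correction of a trend on gene length and each library left out. Chain ratios were tested by exact permutation over 210 groupings and relations between libraries with 100000 resamples. Libraries of a group differed by 9.45 to 215 in chi-square per degree of freedom in 21 pairs, so none was counted as a second run of the same library. This measure cannot exclude libraries amplified separately from the same RNA. The labels do not say that each library came from its own mouse, and p-values measure the spread between libraries.

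The members, lists and tests were chosen with earlier results of these data known. Named are the 10 receptor genes, Foxp3, each called gene of a list (for proliferation, 2 of them) or otherwise its 3 highest per kb of exon (a gene already given under another list is not repeated), and the 3 genes most like Il7r and the receptor gene of lowest adjusted p. Some items of these lists are not reported here. Some other list members were added as comparisons after their values were seen.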

Additional observations from a re-analysis of the deposited data

Results flagged for a closer look

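In R26-TIR1(F74G) replicate 7 the normalized count of Il6st was 19094, while the other 5 libraries ran from 4543 to 9986, and it stood apart as a single high library by Dixon's criterion (gap over range 0.626, just past the 95% critical value). The same library stood apart for Foxp3, with 16059 normalized counts against 6778 to 9851 (gap over range 0.669). These are 2 of 32 groups of values examined, where chance gives about 1 in 20 (1.6 groups). This library also had the highest slope of counts on gene length (0.12).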

How the results depend on the processing

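No paired analysis was possible because the R26-WT and R26-TIR1(F74G) libraries share no replicate number. The count of receptor genes called, 0 of 10 in DESeq2, was 0 with edgeR, voom, TMM factors and no filter on low counts, 1 with the gene length trend removed (Il10rb), 2 with 1 surrogate variable (Il10rb and Il6ra, both lower) and from 0 to 1 when 1 library was left out (1 without R26-WT replicate 2). The count over all genes, 284, was 61 with edgeR, 80 with voom, 743 with 1 surrogate variable and from 187 (without R26-WT replicate 4) to 346 when 1 library was left out. Of 160 alternative values of the 10 receptor genes, 131 kept their direction and their side of the threshold, 4 passed it in the same direction and 25 changed sign without being called. With 1 surrogate variable the log2 fold changes of Il6st (-0.16), Il10ra (-0.015) and Il27ra (-0.026) changed sign. The near-zero value of Il27ra did so also with edgeR and with TMM factors (-0.0058 each) and with the length trend removed (-0.0080). Left-out libraries moved Il7r from -0.18 to 0.35, Il6ra from -0.28 to -0.076, Il18r1 from -0.22 to -0.068, Ifngr1 from -0.25 to -0.15, Il6st from -0.23 to 0.45, Il10ra from -0.091 to 0.31, Il21r from -0.0083 to 0.066, Il27ra from -0.030 to 0.031, Ifngr2 from -0.0072 to 0.10 and Il10rb from -0.43 to -0.30. The difference in the chain ratio ran from -0.49 (without R26-WT replicate 2) to -0.12 (without R26-WT replicate 3) for Il6ra over Il6st, from 0.22 to 0.78 (the same libraries in the other order) for Il10ra over Il10rb and from -0.30 to -0.17 for Ifngr1 over Ifngr2. These 3 differences kept their sign and stayed above an adjusted p of 0.05 in each alternative run. The cause of these shifts was not tested. Depth did not fall below 909 counts for a receptor gene, and the spread between libraries set the width of the intervals.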

Other observations

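In the lists of T cell state, Tnfrsf9, a costimulatory receptor of activated T_reg cells, fell between R26-WT and R26-TIR1(F74G) from 7734 ± 609 to 5497 ± 502 normalized counts (mean ± SD, n = 4 and 6). Its log2 fold change was -0.49 with SE 0.11 (adjusted p 0.000565 in DESeq2 and 0.0510 in edgeR). Tigit, an inhibitory receptor, rose from 42.8 ± 24.2 to 141 ± 99.5 (1.73 with SE 0.45, adjusted p 0.0102 in DESeq2 and 0.245 in edgeR). The other 10 of the 12 activated T_reg genes were not called (list median 0.12). Of 8 resting T cell genes, Tcf7, a transcription factor of resting and memory T cells, rose from 57875 ± 7140 to 77714 ± 7248 (0.43 with SE 0.12, adjusted p 0.0257 in DESeq2 and 0.121 in edgeR), and 7 were not called. With each library left out in turn, Tnfrsf9 was called in 10 of 10 fits, Tigit in 7 (not without R26-WT replicates 1, 3 or 4) and Tcf7 in 3 (those without R26-WT replicates 1 or 2 or R26-TIR1(F74G) replicate 9). In the CD8 and NK list only Eomes, a T-box factor, was called, in this fit and in 10 of 10 with a library left out. It rose from 109 ± 29.8 to 302 ± 63.1 (1.47 with SE 0.23, adjusted p 4.54e-08 in DESeq2 and 0.0161 in edgeR). Of the same list, Cd8a had from 0 to 41 raw counts per library, Cd8b1 from 756 to 2226, Nkg7 from 230 to 881 and Prf1 from 307 to 830, none of them called.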
